A study of Mus musculus with 2 samples.

Results

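The RUNX, CBFB, ETO and MYB transcriptional regulators were described in mouse leukemia stem cells as 10 genes, namely Runx1, Runx2, Runx3, Cbfb, Cbfa2t2, Cbfa2t3, Runx1t1, Myb, Mybl1 and Mybl2. They were chosen by name, and all 10 were found among the 43346 rows of the gene tables that carry an Ensembl identifier, of which 21474 are protein-coding genes. The transcript tables held 68 transcripts of these genes. Polyadenylated RNA was sequenced with paired ends in 2 libraries, biological replicate 1 and biological replicate 2 of the labels, and both belong to 1 group. Per the labels, the cells were CD34+, CD133+, Kit+ and Sca1+ and Friend virus infected, the virus being a murine retrovirus under which erythroleukemia develops; Prom1 encodes CD133 and Ly6a encodes Sca1. The donors were adults aged 10 to 12 weeks, males pooled with females, whose strain had to carry the Fv2 sensitive allele (Fv2s), and their health state is given as unknown. The libraries have different biosample records and the same donor record, and the labels say nothing more on how the cells were divided, so part of the difference between replicates can be technical. With no second group, no condition was compared and no p-value was computed; the question was how much of each factor, and which of its transcripts, the cells held and how far the libraries differed.

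RUNX proteins bind DNA through the Runt domain, and CBFB, which does not touch DNA itself, strengthens that binding. In blood, RUNX1 is required for the first definitive stem cells and for platelet precursors, RUNX3 acts in lymphoid and myeloid cells, and RUNX2 is best known as the master regulator of bone. The 3 RUNX genes each have a distal and a proximal promoter, whose products differ at the amino end. The ETO family (Runx1t1, Cbfa2t2 and Cbfa2t3) binds no DNA by itself and recruits corepressor complexes that hold histone deacetylases; human RUNX1T1 is the fusion partner of RUNX1 in a form of acute myeloid leukemia, and CBFA2T3 (ETO2) sits in the TAL1, GATA1 and LDB1 complex of red cell precursors. MYB keeps blood progenitors dividing and undifferentiated, MYBL2 works with the MuvB complex to activate genes of late cell cycle phases, and MYBL1 is known for its role in male germ cells.

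The gene tables summed to 23575315 expected counts (estimated fragments) in replicate 1 and 22541765 in replicate 2. Levels are the deposited TPM, a share of all transcripts corrected for length, so they can be set between genes. Of the protein-coding genes, 8942 had at least 1 TPM in both libraries, and the median coefficient of variation of their TPM between the libraries was 32.0%. Transcripts of the 4 sort markers were scarce. Kit had 1.81 TPM in replicate 1 and 1.06 TPM in replicate 2, Cd34 had 1.80 and 0.27 TPM in the same order, Ly6a 1.45 and 2.15 TPM, and Prom1 had 3 counts in replicate 1 and 0 in replicate 2. Of the erythroid markers, Klf1 had 1605 TPM in replicate 1 and 1053 TPM in replicate 2, Epor had 655 and 288 TPM, Slc4a1 had 1419 and 437 TPM, and Gata1 had 308 and 75.0 TPM in the same order.

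Of the 10 members, 8 passed 1 TPM in both libraries, against 41.6% of all protein-coding genes, and the levels spanned from the 97.4th percentile of protein-coding genes to below 1 TPM. The ETO family member Cbfa2t3 had the highest level, followed by Runx3, Runx1 and Mybl2; Myb, Cbfa2t2, Cbfb and Runx2 lay between 4.72 and 23.5 TPM in the separate libraries, and Mybl1 and Runx1t1 were below 1 TPM in both. Since whole cell pools were sequenced, a lower level can mean fewer cells with the transcript or less of it per cell, and these cannot be told apart. Of the 9 pairs of neighbours in this order, 5 did not overlap in deposited TPM between their 2 libraries: Cbfa2t3 above Runx3, Runx3 above Runx1, Runx1 above Mybl2, Mybl2 above Myb, and Runx2 above Mybl1. Myb and Cbfa2t2, Cbfa2t2 and Cbfb, Cbfb and Runx2, and Mybl1 and Runx1t1 overlapped. For 2 of these pairs the overlap depended on the measure. Myb lay above Cbfa2t2 within each library, and with 1 fixed length per gene Myb had 23.7 TPM in replicate 1 and 12.0 TPM in replicate 2, clear of Cbfa2t2 at 8.06 and 6.32 TPM. By the authors' posterior mean, Mybl1 had 0.65 TPM in replicate 1 and 0.98 TPM in replicate 2, clear of Runx1t1 at 0.55 and 0.26 TPM.

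**Figure D1:**
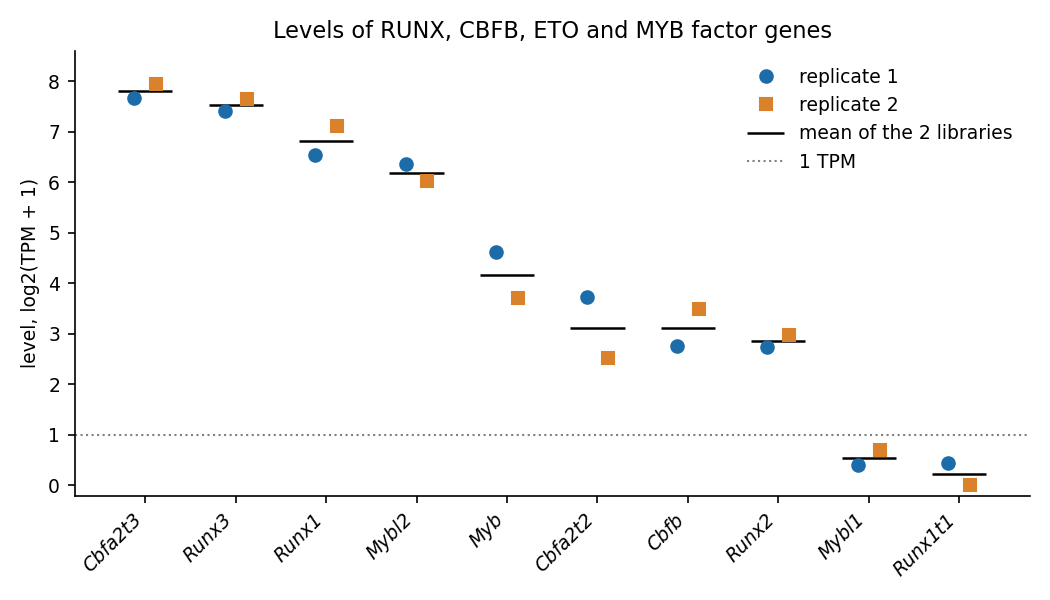
Level of each member as log2(TPM + 1), with replicate 1 (circles) left of replicate 2 (squares), the mean of the 2 log2 values as a line and 1 TPM as a dotted line. Cbfa2t3, Runx3, Runx1 and Mybl2 stand above the rest at 64.28 TPM or more in each library, and Mybl1 and Runx1t1 lie below the dotted line.

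Among the RUNX genes, Runx3 and Runx1 were abundant and Runx2 was not. Runx3 (ENSMUSG00000070691.6, mm10 chromosome 4, 135120652 to 135177990, plus strand) had 168 TPM in replicate 1 and 200.4 TPM in replicate 2, a mean of 184 ± 22.7 TPM (SD, n = 2). Runx1 (ENSMUSG00000022952.12, chromosome 16, 92601466 to 92826149, minus strand) had 91.8 TPM in replicate 1 and 136 TPM in replicate 2, with a mean of 114 ± 31.5 TPM (SD, n = 2). Both were lower in replicate 1, and Runx3 lay above Runx1 in each library. Runx2 (ENSMUSG00000039153.12, chromosome 17, 44495987 to 44814797, minus strand) had 5.68 TPM in replicate 1 and 6.87 TPM in replicate 2, a mean of 6.28 ± 0.842 TPM (SD, n = 2). Of the summed RUNX TPM, Runx3 held 63.3% in replicate 1 and 58.3% in replicate 2, and Runx1 held 34.6% and 39.7%. Runx2 held 2.14% in replicate 1 and 2.00% in replicate 2, close between the libraries. Of 4 osteoblast and stromal markers, Col1a1 and Alpl were above 1 TPM in both libraries, Bglap had 3 counts in replicate 1 and 0 in replicate 2, and Sp7, which marks committed osteoblasts, had 0 counts in both; the 4 genes summed to 10.1 TPM in replicate 1 and 11.2 TPM in replicate 2.

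Cbfb, the partner that all 3 RUNX proteins share, was measured far below Runx1 and Runx3, while its values overlapped with those of Runx2. Cbfb (ENSMUSG00000031885.9, chromosome 8, 105170674 to 105217989, plus strand) had 5.75 TPM in replicate 1 and 10.2 TPM in replicate 2, a mean of 7.97 ± 3.14 TPM (SD, n = 2), from 232 and 485 counts. The summed RUNX level was 46.2 times that of Cbfb in replicate 1 and 33.7 times in replicate 2. In expected counts, with no correction for length, the multiples were 44.0 and 25.9 in the same order. No other annotated transcript shared a 25-base word with Cbfb (0 of 3543 words).

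The 2 known promoters of each RUNX gene were compared through the annotated starts of their transcripts. Starts within 2 kb of each other were grouped, and the transcript TPM summed by group, leaving models with an incomplete start apart; this grouping was chosen after transcript values had been seen. Proximal starts held nearly all of Runx1, at 98.4% of its TPM in replicate 1 and 99.7% in replicate 2, from 3501 and 5154 counts. The distal starts of Runx1 received 137 counts in replicate 1 and 48.8 in replicate 2. In Runx3, proximal starts held 91.1% in replicate 1 and 98.4% in replicate 2, and the distal transcript Runx3-201 received 1109 and 234 counts in the same order. Runx3 therefore had more distal signal in replicate 1 than in replicate 2, by either unit. In Runx2, proximal starts held 93.1% in replicate 1 and 91.0% in replicate 2, but by the authors' posterior mean shares, which spread reads more evenly over similar transcripts, they held 71.6% and 78.9%.

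**Figure D2:**
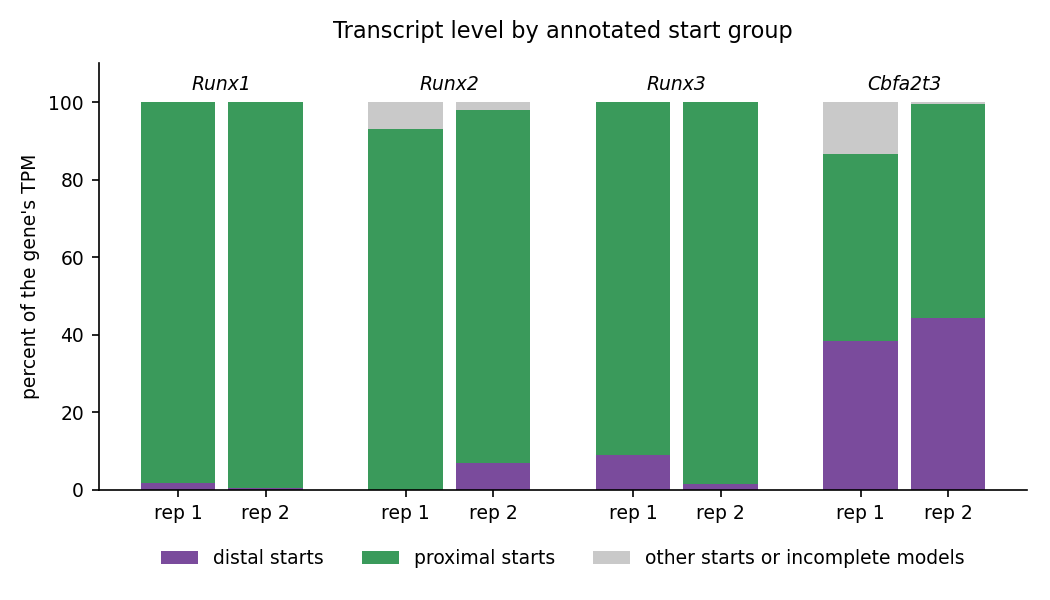
Percent of each gene's TPM by annotated start group, replicate 1 (rep 1) left of replicate 2 (rep 2), with distal starts in purple, proximal starts in green and other or incomplete models in grey. The RUNX genes are green over 90.98% or more of each bar, and the Cbfa2t3 bars are divided between both groups.

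The distal promoters of the RUNX genes are shown because they share a run of letters. The RUNX motif AACCACA, searched on both strands, occurs in 5.27% of the 32851 RefSeq promoter windows of mouse build GRCm38.p6, each from 250 bases before to 50 after a start. Its doubled form with 1 base between the copies, AACCACAGAACCACA, occurs in 4 of the 32851 windows (0.0122%). These are the distal windows of Runx1, Runx2 and Runx3 and that of Gm16225, a neighbour whose window covers the same Runx3 bases. The doubled motif begins at base +28 of Runx1 and +23 of Runx2 counted from the RefSeq start as +1, and 135 bases before the start of Runx3. The 30 bases around it follow, 5′ to 3′ on the gene's strand, with both copies of the motif in capitals.
Runx1 distal, chr16:92826026-92826055, minus strand: tcataaacAACCACAgAACCACAagttggg
Runx2 distal, chr17:44814584-44814613, minus strand: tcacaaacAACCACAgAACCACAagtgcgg
Runx3 distal, chr4:135120502-135120531, plus strand: ggtccctcAACCACAgAACCACAaggccag

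The proximal windows of Runx1 and Runx3 held no AACCACA on either strand, and Runx2 had no proximal window in the table. The distal Runx2 window held 1 further copy, beginning 81 bases before the start. Over the 250 bases before the start, G and C made up 45.6% in the distal Runx1 window and 67.6% in the proximal one, and 65.2% in the distal and 78.8% in the proximal Runx3 window. The stretches before the starts are printed to show this contrast; they end where the most upstream GENCODE start of that group begins, and are in lower case throughout. The RUNX motif lies in none of them, and a CCAAT box, on either strand, lies in both proximal stretches. The full distal windows of Runx1 and Runx3 hold CCAAT boxes too, so this box does not set proximal from distal windows apart in these genes. Those of Runx1 lie between the end of the printed distal stretch and the RefSeq start, and no distal Runx3 stretch is printed.
Runx1 distal promoter, chr16:92826150-92826324, minus strand: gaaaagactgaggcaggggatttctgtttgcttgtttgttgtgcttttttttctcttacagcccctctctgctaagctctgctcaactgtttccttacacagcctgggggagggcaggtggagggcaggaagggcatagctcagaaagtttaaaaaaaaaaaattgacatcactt
Runx1 proximal promoter, chr16:92697330-92697579, minus strand: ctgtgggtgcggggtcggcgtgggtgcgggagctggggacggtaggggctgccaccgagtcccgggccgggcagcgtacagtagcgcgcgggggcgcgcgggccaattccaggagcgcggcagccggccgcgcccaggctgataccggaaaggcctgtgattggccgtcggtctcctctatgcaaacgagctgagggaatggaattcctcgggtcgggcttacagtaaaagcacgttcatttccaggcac
Runx3 proximal promoter, chr4:135152295-135152495, plus strand: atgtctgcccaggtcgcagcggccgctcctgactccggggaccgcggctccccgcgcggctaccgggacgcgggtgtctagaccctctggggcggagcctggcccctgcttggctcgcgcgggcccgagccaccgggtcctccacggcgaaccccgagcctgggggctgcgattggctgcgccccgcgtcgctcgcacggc

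A motif match is a description of letters and says nothing on binding. The leading transcripts of Runx1 and Runx3 belonged to the proximal start groups. The printed Runx1 proximal stretch lies before the RefSeq start at 92697329, beside the start of Runx1-202 at 92697328. The model of Runx1-203 starts at 92696125, further into the gene. Runx1-203, whose model starts in the proximal group and codes for 451 residues, held 94.5% of Runx1 in replicate 1 and 97.3% in replicate 2. It contains a 192-base exon (chromosome 16, 92644154 to 92644345, 64 codons) that Runx1-202, the proximal form of 387 residues, lacks. Beside their starts, the models also differ at the end, Runx1-202 ending at 92603656 and Runx1-203 at 92605398. Their shares therefore need not rest on this exon alone. Runx1-202 held 3.88% in replicate 1 and 2.37% in replicate 2, and the distal Runx1-201, of 465 residues, held 1.11% and 0.32%. Runx1-203 also ends at 92605398, short of the end of Runx1-201 at 92601466, and no annotated distal transcript ends there, so the models that carry the distal and proximal starts differ in the last exon as well. The same holds for Runx3: Runx3-202, of 409 residues, held 91.1% in replicate 1 and 98.4% in replicate 2 and ends at 135176181, while Runx3-201, of 423 residues, ends at 135177990.

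By share of TPM, the leading transcript of Runx2 differed between the libraries. Runx2-210, a proximal form of 492 residues, held 51.6% in replicate 1 and 10.1% in replicate 2, from 83 and 20 counts. Runx2-212, a model of 283 coding residues marked for nonsense-mediated decay, held 31.9% in replicate 1 and 65.3% in replicate 2, from 96 and 238 counts. The Runx2-210 model is 1565 bases long and that of Runx2-212 is 2818 bases. By share of expected counts, Runx2-212 led in both libraries, at 38.1% in replicate 1 and 58.3% in replicate 2. Runx2-210 held 32.9% and 4.79% by that measure. By posterior mean share in replicate 1, Runx2-210 held 34.0% and Runx2-212 held 28.5%. The longer proximal form Runx2-203, of 514 residues, held 9.68% in replicate 1 and 15.7% in replicate 2. Runx2os1, an antisense gene across the proximal start, had 1.07 TPM in replicate 1 and 3.79 TPM in replicate 2, and Supt3, which overlaps the distal part on the other strand, had 10.6 and 5.39 TPM. Whether the counting used strand is not given in the sources used here, and the part of these overlapping genes in the Runx2 values was not tested.

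Cbfb changed its leading transcript as well. Cbfb-202 held 62.0% in replicate 1 and was listed at 0 in replicate 2, while Cbfb-204 was listed at 0 in replicate 1 and held 83.2% in replicate 2. By the posterior mean shares, Cbfb-202 held 44.4% in replicate 1 and 12.3% in replicate 2, and Cbfb-204 held 7.74% and 65.2%. The direction is the same by both, and the zeros are not kept by the posterior mean. The short transcript Cbfb-206, which is not coding, held 24.1% in replicate 1 and 5.91% in replicate 2 from 9.4 and 4 counts. Cbfb-201, the annotated form of 187 residues, held 9.97% in replicate 1 and 7.94% in replicate 2. The forms part at 1 exon of 96 bases (chromosome 8, 105202452 to 105202547, 32 codons), which Cbfb-204, of 155 residues, skips and which Cbfb-202, of 182 residues, extends by 31 bases. The junctions into the next exon, which begins at 105215904, are shown for the 3 forms from the GENCODE M21 transcripts, with the next exon in capitals; the M21 model of Cbfb-202 is 55 bases longer than the one in the tables.
Cbfb-201: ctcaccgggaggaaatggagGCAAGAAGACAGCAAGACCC
Cbfb-202: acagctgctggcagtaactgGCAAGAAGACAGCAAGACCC
Cbfb-204: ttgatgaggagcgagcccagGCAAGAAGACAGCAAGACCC

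The ETO family was represented almost wholly by Cbfa2t3. Cbfa2t3 (ENSMUSG00000006362.11, chromosome 8, 122625141 to 122699109, minus strand) had 201 TPM in replicate 1 and 244 TPM in replicate 2, a mean of 222 ± 30.7 TPM (SD, n = 2). Cbfa2t2 (ENSMUSG00000038533.11, chromosome 2, 154436481 to 154539356, plus strand) had 12.2 TPM in replicate 1 and 4.72 TPM in replicate 2, with a mean of 8.48 ± 5.31 TPM (SD, n = 2). Runx1t1 (ENSMUSG00000006586.11, chromosome 4, 13743436 to 13893649, plus strand) had 3 counts (0.36 TPM) in replicate 1 and 0 counts in replicate 2, and its posterior mean was 0.55 and 0.26 TPM in the same order. A limit of 3 counts in replicate 2 corresponds to 0.0474 TPM at the effective length of 3191 bases assigned there; the length was 419 bases in replicate 1, so this limit rests on the length assigned to a gene without reads. Cbfa2t3 thus held 94.1% of the summed family TPM in replicate 1 and 98.1% in replicate 2. Of 4 neuronal markers, none reached 1 TPM in both libraries and Stmn2 had 0 counts in both; they summed to 0.20 TPM in replicate 1 and 0.37 TPM in replicate 2. Of the 0.36 TPM of Runx1t1 in replicate 1, 0.34 TPM was given to Runx1t1-205, a short transcript that is not coding.

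The Cbfa2t2 values rest on the length the authors' program assigned to the gene. Its effective length was 1754 bases in replicate 1 and 3567 bases in replicate 2, and its counts were 424 and 334. With the mean of the 2 lengths used in both libraries, the level was 8.06 TPM in replicate 1 and 6.32 TPM in replicate 2, in place of 12.2 and 4.72 TPM. The transcripts behind this were Cbfa2t2-203, an incomplete model at 39.9% in replicate 1 and 0 in replicate 2, and Cbfa2t2-206, also incomplete, at 25.2% and 61.9%. The retained-intron transcript Cbfa2t2-205 held 30.9% in replicate 1 and 29.8% in replicate 2. Of the 25-base words of Cbfa2t2, 9.71% occur in another annotated gene, most of them in the pseudogene Cbfa2t2-ps1, which had 2.12 counts in replicate 1 and 0 in replicate 2.

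Cbfa2t3 was divided between its start groups. Its distal starts held 38.3% of the TPM in replicate 1 and 44.3% in replicate 2, and its proximal starts held 48.2% and 55.2%. By expected counts, which favour long transcripts, the distal share was 67.8% in replicate 1 and 37.0% in replicate 2, so the direction between the libraries depends on the unit. The distal coding form Cbfa2t3-203, of 620 residues, held 36.9% in replicate 1 and 15.1% in replicate 2. The proximal coding form Cbfa2t3-202, of 585 residues, held 3.37% in replicate 1 and 30.4% in replicate 2. The shares of these 2 forms went in opposite directions, while Cbfa2t3-201, the proximal form of 559 residues, held 13.4% and 9.87%. Among shorter models, the retained-intron Cbfa2t3-207 held 1.37% in replicate 1 and 29.2% in replicate 2, and the incomplete Cbfa2t3-204 held 27.6% and 13.7%. The transcript Cbfa2t3-205, which starts inside the gene and is not coding, held 13.5% in replicate 1 and 0.49% in replicate 2. The M21 model of Cbfa2t3-203 is 3598 bases longer than the one in the tables. Gm20388, a long annotated gene that spans Cbfa2t3 on the other strand, had 50.6 TPM in replicate 1 and 45.2 TPM in replicate 2, and its part in the Cbfa2t3 values was not tested.

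**Figure D3:**
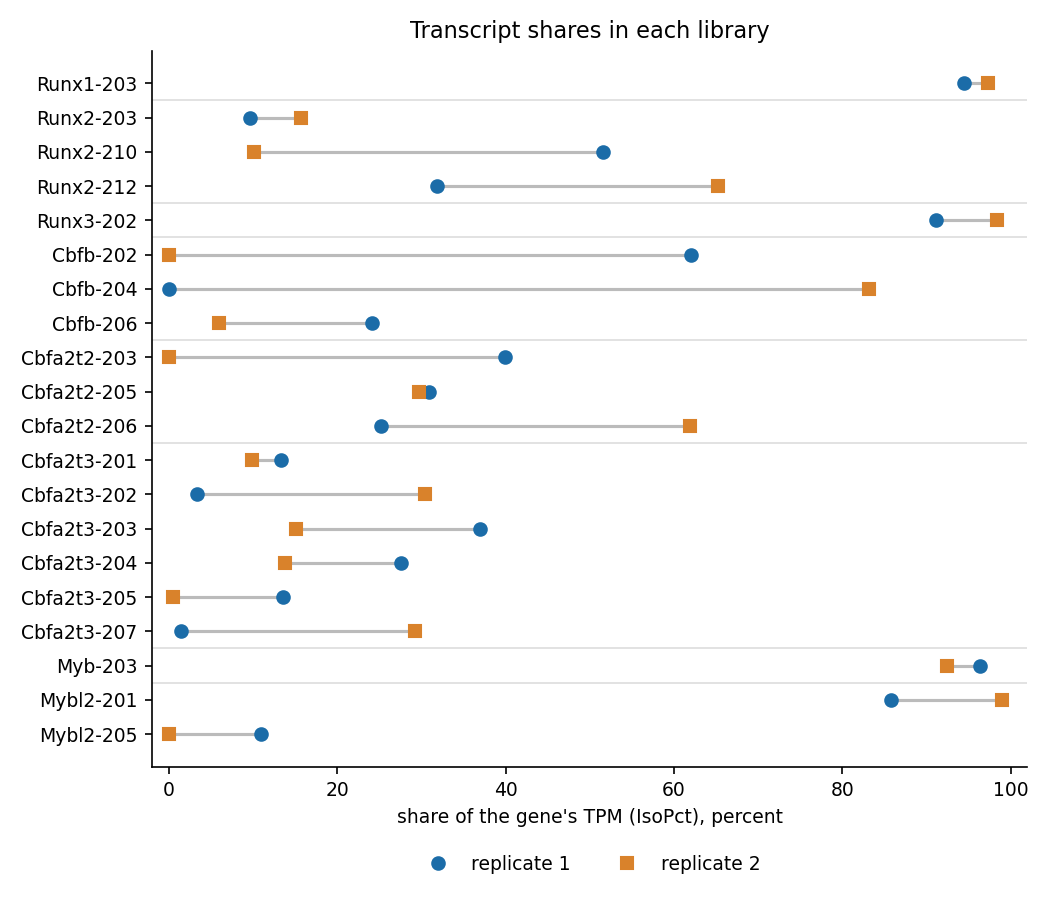
Share of the gene's TPM (IsoPct, percent) of each named transcript in replicate 1 (circles) and replicate 2 (squares), for the 8 members at 1 TPM or more. The points of Runx1-203, Runx3-202, Myb-203 and Mybl2-201 lie at 85.78% or more in both libraries, and those of Cbfb-202 and Cbfb-204 lie far apart in opposite directions.

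Of the MYB genes, Mybl2 was the most abundant. Mybl2 (ENSMUSG00000017861.7, chromosome 2, 163054687 to 163084688, plus strand) had 80.6 TPM in replicate 1 and 64.3 TPM in replicate 2, a mean of 72.4 ± 11.5 TPM (SD, n = 2). Myb (ENSMUSG00000019982.10, chromosome 10, 21124935 to 21160984, minus strand) had 23.5 TPM in replicate 1 and 12.1 TPM in replicate 2, with a mean of 17.8 ± 8.08 TPM (SD, n = 2). Mybl2 lay above Myb in each library, 4.07 times by their means. Mybl1 (ENSMUSG00000025912.12, chromosome 1, 9667415 to 9700209, minus strand) had 0.32 TPM in replicate 1 and 0.63 TPM in replicate 2, from 23 and 61 counts, a mean of 0.475 ± 0.219 TPM (SD, n = 2). Mybl2 held 77.2% of the family's summed TPM in replicate 1 and 83.5% in replicate 2, and Myb held 22.5% and 15.7%. Of 4 germ cell markers, 3 (Sycp3, Piwil1 and Dazl) had 0 counts in both libraries and Ddx4 had 1 count in replicate 1, so the Mybl1 reads stood beside almost no reads of these germ cell markers.

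Myb and Mybl2 each kept 1 leading transcript. Myb-203 held 96.3% of Myb in replicate 1 and 92.4% in replicate 2, and Myb-201 received 0 counts in both. Myb-203, of 755 residues, contains a 357-base exon (chromosome 10, 21144969 to 21145325, 119 codons) that Myb-201, of 636 residues, lacks. In M21 the models also differ at the end, with Myb-203 reaching 21124935 and Myb-201 stopping at 21125276. The M21 model of Myb-201 is 79 bases longer than the one the authors used. Reads across the junctions were not counted, so the shares need not rest on this exon alone. Both forms leave the same exon, which ends at 21146186, and the junctions are printed with the following exon in capitals.
Myb-203: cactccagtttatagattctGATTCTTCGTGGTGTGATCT
Myb-201: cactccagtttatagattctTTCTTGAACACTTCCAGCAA
Mybl2-201, of 704 residues, held 85.8% of Mybl2 in replicate 1 and 99.0% in replicate 2, and the incomplete Mybl2-205 held 10.9% in replicate 1 and was listed at 0 in replicate 2. Of the 25-base words of Mybl2, 21.6% occur in another annotated gene, and 20.2% occur in the pseudogene Gm3320, which is not analysed here.

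The promoters of Mybl2 and Myb are shown because both carry, just before the start, the E2F motif GGCGGGA of genes tied to cell division. Counted from the RefSeq start, the motif begins 13 bases before that of Mybl2 and 9 bases before that of Myb. It also occurs in the windows of Cbfb (23 bases before the start) and of Cbfa2t3 (247 bases before the distal and 173 before the proximal start), and on either strand in 11.3% of the 32851 windows. The other motifs were searched on both strands in the 11 windows of the 8 matched members. The ETS motif CCGGAAG, found in 8.86% of all windows, occurred in none of the 11. The GATA motif AGATAA, found in 11.2% of all windows, and the cell cycle element called CHR, found in 17.9%, occurred in none of them either. The CCAAT box, found in 37.4% of all windows, occurred in both Runx1 windows, both Runx3 windows and the proximal Cbfa2t3 window. The 250 bases before the starts follow, with the motif in capitals.
Mybl2 promoter, chr2:163054385-163054634, plus strand: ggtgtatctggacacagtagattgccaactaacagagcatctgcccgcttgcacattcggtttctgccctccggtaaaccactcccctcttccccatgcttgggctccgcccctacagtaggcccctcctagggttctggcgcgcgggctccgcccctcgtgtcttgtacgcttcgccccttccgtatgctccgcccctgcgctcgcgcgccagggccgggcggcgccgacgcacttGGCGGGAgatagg
Myb promoter, chr10:21160985-21161234, minus strand: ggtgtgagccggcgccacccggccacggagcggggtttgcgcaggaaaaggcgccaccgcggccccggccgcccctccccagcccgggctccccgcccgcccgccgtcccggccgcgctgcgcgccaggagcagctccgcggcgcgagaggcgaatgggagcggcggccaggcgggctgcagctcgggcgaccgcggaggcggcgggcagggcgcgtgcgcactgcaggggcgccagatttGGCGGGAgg

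Differences between the libraries were measured as the ratio of expected counts, replicate 1 over replicate 2, after TMM scaling, with an exact 95% interval that covers counting error only. A gene was called apart where that interval lay wholly outside 2-fold, which 23.4% of 11708 tested protein-coding genes did (14.5% higher and 8.84% lower in replicate 1). Of the members, 9 had the 20 counts needed, and Cbfb and Mybl1 were apart. That share, 2 of 9, is near the background. DESeq2 size factors (23.6% of genes apart) and no filter on counts (13.7%) gave the same 2 members, a minimum of 100 counts (23.6%) and scaling by summed count (24.7%) gave Cbfb alone, a fold of 1.5 (41.4%) added Runx1 and Runx2, and the deposited TPM (27.5%) gave Cbfa2t2 alone. Cbfb had a log2 ratio of -1.56 (interval -1.79 to -1.33), lower in replicate 1. Mybl1, from far fewer counts, had a log2 ratio of -1.89 (interval -2.66 to -1.19).

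The other 7 tested members were not apart. Runx2 had a log2 ratio of -1.19 (-1.43 to -0.97) and Runx1 one of -1.01 (-1.07 to -0.95), and both intervals included 2-fold. Runx3 had -0.63 (-0.68 to -0.58) and Cbfa2t3 -0.62 (-0.67 to -0.58). Myb alone of the 9 had a positive log2 ratio, 0.48 (0.36 to 0.61). Mybl2 had -0.34 (-0.40 to -0.28) and Cbfa2t2 -0.15 (-0.36 to 0.06), an interval that includes no difference.

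The directions of Mybl2 and Cbfa2t2 turned with the scaling. By the deposited TPM, Mybl2 had a log2 ratio of 0.33 and Cbfa2t2 one of 1.37, both positive, while those of Runx1, Runx2, Runx3, Cbfb, Cbfa2t3 and Mybl1 were negative by either measure and that of Myb was positive by either. The effective length of Runx2, as that of Cbfa2t2, differed between the libraries, at 2246 bases in replicate 1 and 2997 bases in replicate 2. The median log2 ratio of all tested genes was 0.04 after TMM scaling, 0.35 after scaling by summed count and 0.44 by TPM. The share of apart genes that were higher in replicate 1 was 62.1% after TMM scaling, 82.1% after scaling by summed count and 85.8% by TPM. Taken relative to the median of its own scaling, each of the 9 tested members had the same direction by TMM and by TPM except Cbfa2t2. Cbfa2t2 was -0.19 by TMM and 0.93 by TPM. TMM, DESeq2 and summed-count scaling differ only by a shift common to all genes, so they agree here by construction.

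**Figure D4:**
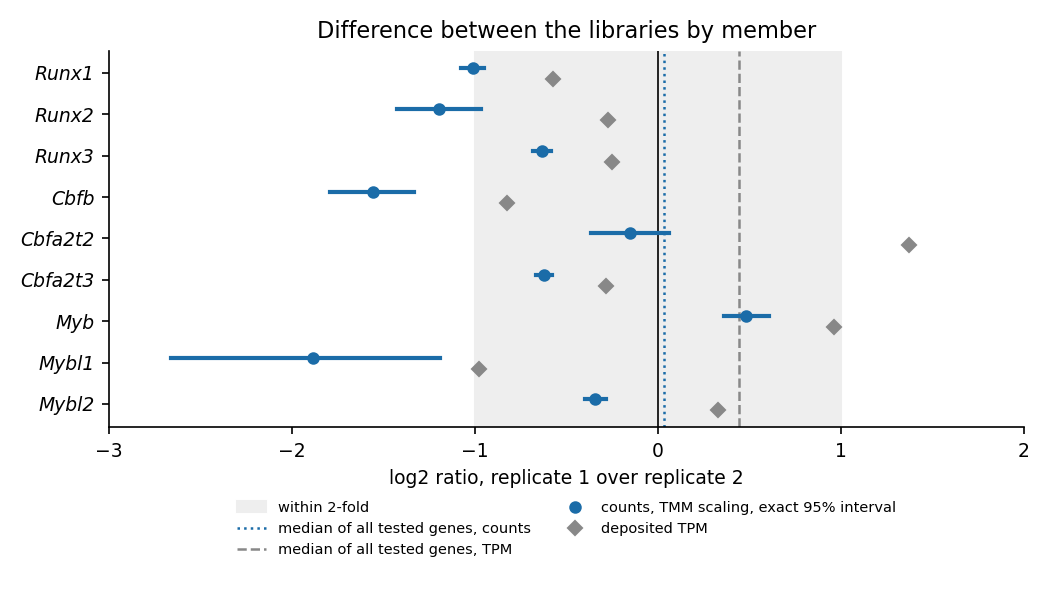
Log2 ratio of replicate 1 over replicate 2 for the 9 members with 20 counts or more, from TMM-scaled counts with the exact 95% interval (circles and bars) and from the deposited TPM (diamonds), with the medians of all tested genes as vertical lines and the range within 2-fold shaded. The bars of Cbfb and Mybl1 lie wholly left of the shading and the diamond of Cbfa2t2 lies right of it.

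Marker genes of several cell types differed between the libraries in the same data. Of the erythroid markers, Slc4a1 and Gata1 were apart and higher in replicate 1, and Klf1 and Epor were not apart. The 4 B lineage markers summed to 607 TPM in replicate 1 and 240.4 TPM in replicate 2, and the 4 granulocyte-monocyte markers to 72.5 and 22.5 TPM. The macrophage markers went both ways: C1qa had 238 TPM in replicate 1 and 281 TPM in replicate 2 and C1qb 212 and 293 TPM, while Csf1r had 16.7 and 7.55 TPM, and Adgre1, at 3.67 and 0.78 TPM, was apart and higher in replicate 1. The 3 plasmacytoid dendritic markers, from cells that use Runx2, summed to 15.5 TPM in replicate 1 and 25.9 TPM in replicate 2. The 4 T and NK markers, from cells that use Runx3, summed to 10.9 TPM in both. The 4 megakaryocyte markers summed to 90.4 TPM in replicate 1 and 72.4 TPM in replicate 2. These sums are led by few genes and carry the general shift of TPM given above. After TMM scaling the median log2 ratio over the tested markers was 1.2 for the erythroid list and 0.25 for the B lineage. It was 0.22 for granulocytes and monocytes and 0.07 for macrophages. It was -1.05 for plasmacytoid dendritic cells, -0.73 for T and NK cells and -0.36 for megakaryocytes. The part of these cell types in the members' values was not tested.

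The leading transcript was the same in both libraries for 4 of the 8 members at 1 TPM or more (Runx1-203, Runx3-202, Myb-203 and Mybl2-201), against 68.4% of 7404 protein-coding genes with more than 1 transcript. It differed for Runx2, Cbfb, Cbfa2t2 and Cbfa2t3. By share of expected counts, which gives short models less weight, 6 of the 8 kept it, with Runx2-212 and Cbfa2t2-206 also leading in both libraries. The 68.4% was taken by share of TPM, and the share of all genes by expected counts was not computed.

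The measured RUNX and ETO partners were detected in both libraries. All 11 RUNX coregulators analysed were at 1 TPM or more in both libraries, against 41.6% of all protein-coding genes. Their median was 4.73 on the log2(TPM + 1) scale, against 0.61 over all protein-coding genes. None was apart between the libraries, against 23.4% of all tested genes. Both shares are also the background for the lists that follow. Prmt1 is not analysed here. Of the coregulators, Aes, a short Groucho-related protein, had 1543 TPM in replicate 1 and 2049 TPM in replicate 2. Smarca4, the motor of the SWI/SNF remodeller, had 311 and 279 TPM, the Groucho corepressor Tle3 had 158 and 212 TPM, and the kinase Hipk2 had 57.1 and 69.1 TPM in the same order. The 13 ETO partners were likewise all detected, with a median of 5.35 on that scale. Tcf3, the E protein bound by ETO factors, had 1084 TPM in replicate 1 and 1144 TPM in replicate 2, and Ldb1 had 861 and 1163 TPM. Gfi1b, a repressor of red cell and platelet precursors, had 362 TPM in replicate 1 and 119.8 TPM in replicate 2 and was apart and higher in replicate 1. Gfi1, which encodes a zinc finger repressor of blood progenitors, had 4.28 TPM in replicate 1 and 9.13 TPM in replicate 2 and was apart and lower in replicate 1.

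Described RUNX1 targets were present in part. Of 14, 9 were at 1 TPM or more in both libraries, with a median of 2.69 on the log2(TPM + 1) scale, and the cytokine genes Csf2 and Il3 had 0 counts in both. The most abundant were Nfe2, a platelet and red cell factor, at 80.5 TPM in replicate 1 and 86.5 TPM in replicate 2, and Myh10, at 58.3 and 29.1 TPM. Spi1, which encodes the PU.1 factor, had 24.6 TPM in replicate 1 and 53.7 TPM in replicate 2 and was apart and lower in replicate 1. Itga2b, a platelet integrin, had 32.1 TPM in replicate 1 and 30.4 TPM in replicate 2. Alox12 was apart and higher in replicate 1, from 39 counts against 2.

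Of 14 described MYB targets, 13 were at 1 TPM or more in both libraries, with a median of 3.51 on the same scale. Klf1, a red cell factor, had 1605 TPM in replicate 1 and 1053 TPM in replicate 2, and Myc had 492 and 377 TPM. Hspa8, a constitutive chaperone, had 1075 TPM in replicate 1 and 161 TPM in replicate 2. Hspa8, Mat2a and Cd34 were apart and higher in replicate 1, and Lmo2, at 375 TPM in replicate 1 and 1067 TPM in replicate 2, and Ada were apart and lower. All 10 MYB cofactors were detected, with a median of 5.19; Men1 had 139 TPM in replicate 1 and 158 TPM in replicate 2 and Mybbp1a had 150.3 and 76.7 TPM. Cebpb was apart and lower in replicate 1, at 67.2 TPM against 193 TPM in replicate 2, and Taf12 was apart and higher, at 33.6 TPM against 2.75 TPM.

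Beside Mybl2, both genes of the MuvB and DREAM complexes and late cell cycle genes that these complexes act on were measured. Of 12 MuvB and DREAM genes, 10 were at 1 TPM or more in both libraries, with a median of 3.02 on the log2(TPM + 1) scale. The exceptions were Lin9, at 1.09 TPM in replicate 1 and 0.07 TPM in replicate 2, and Lin52, at 1.01 and 0.10 TPM, both subunits of the MuvB core. E2f4 had 179 TPM in replicate 1 and 107 TPM in replicate 2, Foxm1 had 88.2 and 36.3 TPM, the MuvB subunit Lin37 had 57.4 and 60.7 TPM, and Rbbp4 had 21.1 and 16.8 TPM. Lin9, Lin52 and Rbl1 were apart and higher in replicate 1 and none was apart and lower. Of 14 late cell cycle genes, 13 were at 1 TPM or more in both libraries, with a median of 4.55. Ccna2 had 314 TPM in replicate 1 and 258 TPM in replicate 2, and Ube2c had 138 and 154 TPM. Plk1 had 147 TPM in replicate 1 and 87.8 TPM in replicate 2. Cdk1, Birc5, Bub1 and Top2a were apart and higher in replicate 1 (4 of 14, against 14.5% of all tested genes), and Cdc20, at 168 TPM in replicate 1 and 294 TPM in replicate 2, was apart and lower. The median log2 ratio was 0.57 over the MuvB and DREAM genes and 0.55 over the late cell cycle genes, beside 0.04 over all tested genes and -0.34 for Mybl2 itself. For the other lists it was -0.22 over RUNX coregulators, -0.24 over ETO partners, 0.22 over RUNX1 targets, 0.15 over MYB targets and -0.17 over MYB cofactors. The lists share genes (Sin3a, Ep300, Crebbp, Hipk2, Kmt2a, Mpo, Elane and Cd4), and Kit, Cd34 and Klf1 also stand among the sort and erythroid markers.

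**Figure D5:**
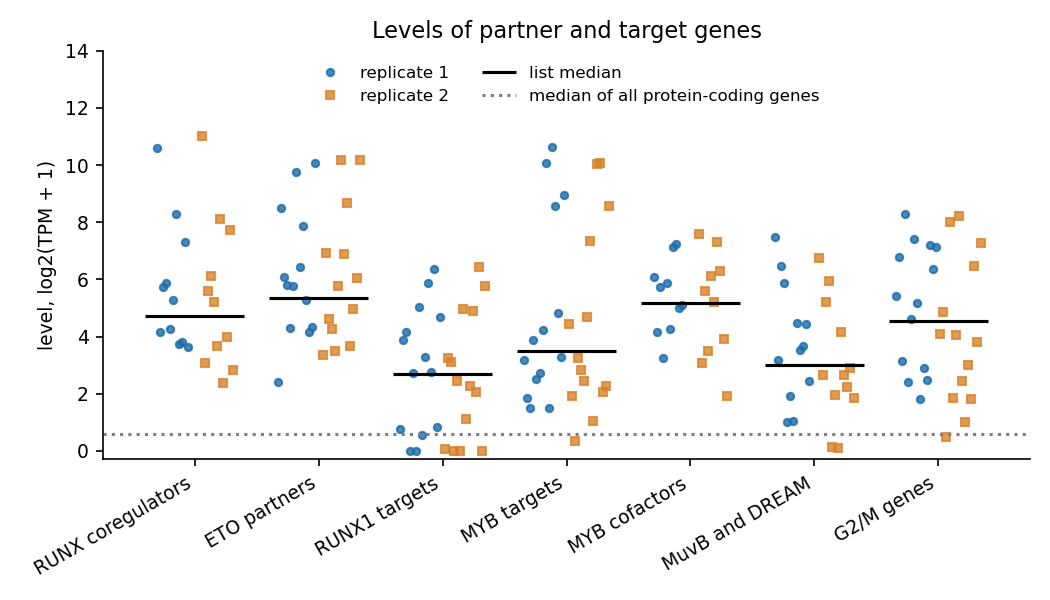
Level of each gene of the 7 partner and target lists as log2(TPM + 1), replicate 1 (circles) left of replicate 2 (squares), with the list median as a line and the median of all protein-coding genes (0.61) as a dotted line. The list medians lie between 2.69 and 5.35, and Csf2 and Il3 of the RUNX1 targets lie at 0 in both libraries.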

How the data were processed

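RNA of 2 libraries of 1 group was measured. The authors gave, per the file headers, expected counts, TPM and FPKM per gene and transcript, and each transcript's share as a percent, on mm10 with the GENCODE M4 models named in the readme. The deposited posterior SDs and interval bounds, on the signal's own scale, were not used. The names of aligner and quantifier were not given in the sources used here. Of 43346 Ensembl rows, 42462 matched GENCODE M21 (same assembly), which gave symbols, positions and residues; sequences came from M21 and RefSeq promoters (GRCm38.p6). Rounded expected counts were scaled in edgeR 4.0.16 (R 4.3.3) by TMM over 11708 protein-coding genes with 20 or more counts; the common biological coefficient of variation was 0.5366. Size factors of DESeq2 1.42.0 were an alternative. The ratio used a prior count of 0.5 and a Clopper-Pearson 95% interval (scipy 1.17.1). A count of 0 allows up to 3 counts. The level of a list is the median, over its genes, of the mean log2(TPM + 1). Members and lists were chosen with earlier results of these data known. Named were all members, transcripts with 10% or more of a detected member in either library, the 4 most abundant genes per list and those with 0 counts in both, and the sort markers; some genes that this rule covers are not reported here, and other list genes, transcripts and overlapping genes were named after their values were seen. Alternatives were other minimums, units, scalings, folds, prior counts and each library alone. Python 3.11.15, numpy 2.4.6, pandas 2.3.3 and matplotlib 3.10.9 were used.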

Additional observations from a re-analysis of the deposited data

How the results depend on the processing

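The count of members apart between the libraries, 2 of 9 (Cbfb and Mybl1), was 1 after scaling by summed count (Cbfb, 24.7% of all genes apart), 1 with a minimum of 100 counts (Cbfb, 23.6%), 4 at a fold of 1.5 (Runx1, Runx2, Cbfb and Mybl1, 41.4%) and 1 by the deposited TPM (Cbfa2t2, 27.5%); the cause was not tested. With DESeq2 size factors or no filter it stayed at 2. With both libraries kept, 20 summary values, these included, stayed within 1.5 times or moved by less than the spread between the libraries. Of such values of single members and lists, 83 did so and 30 moved. Most that moved were log2 ratios under another scaling, among them those of Cbfa2t2 and Mybl2 that changed sign by the deposited TPM. Only the ratios of Cbfb and Mybl1 had a called direction that could reverse, and 0 did. The Mybl1 level was 0.815 TPM by posterior mean. A single library always lies within 1 SD of the mean of 2, so leaving one out says nothing on the stability of a level or share and is given as a range. With a single library, 8 members were detected in each, and the shares ranged from 34.55% to 39.69% for Runx1, 94.1% to 98.1% for Cbfa2t3 and 77.19% to 83.5% for Mybl2; the share of Cbfb-204 ranged from 0% to 83.2%. No paired analysis was possible because there was 1 group. At this depth a gene with 0 counts cannot be told from one present at up to 3 counts. Genes observed at 3 counts or fewer rest on almost no reads, and 2 libraries leave each SD poorly known.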
